A study of Mus musculus with 9 samples.

Results

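Arc is a single gene, 1 of 12327 genes tested in polyadenylated RNA from area CA1 of the mouse hippocampus. It was taken by its symbol, which stands on 1 row of the table of expression values. The 9 libraries come from C57BL/J6 mice aged 9 to 12 weeks and form 3 groups of 3 biological replicates. All mice had been infected with an adeno-associated virus (AAV), used here to deliver a hairpin to brain cells. In the scrambled control group it encoded a scrambled short hairpin RNA (shRNA). In the other groups, H2A.Z shRNA naive and trained, it encoded an shRNA against the histone variant H2A.Z, and the trained mice underwent contextual fear conditioning, in which a mouse comes to fear the chamber where it was shocked. The labels used here do not state the training of the control mice, the promoter that drives the hairpin, the share of cells infected or the time from training to dissection. No group combines the scrambled hairpin with stated training, so training was compared only under the H2A.Z hairpin.

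Arc is an immediate early gene: excitatory neurons transcribe it within minutes of strong synaptic activity, before new protein is made. Its mRNA travels into dendrites and is translated near active synapses, and the protein promotes removal of AMPA-type glutamate receptors from the synaptic membrane. It is needed for lasting memory in rodents, and it descends from a retrotransposon Gag gene whose protein can form capsids. In hippocampus, Arc mRNA is widely used to mark neurons that were recently active. The gene (ENSMUSG00000022602.14) lies on chromosome 15, from 74669083 to 74672570 on the minus strand of GRCm38, and has 3 exons. No other annotated gene overlaps it, so its reads have no antisense or overlapping partner in that annotation.

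Levels are FPKM as the authors deposited them, that is fragment numbers corrected for transcript length and for the depth of a library. From the size of the steps between the lowest values, the Arc values rested on roughly 2147 to 8890 fragments per library. The mRNA of the targeted gene, H2afz, lay between 23.9 and 28.7 FPKM over the 9 libraries (log2 fold change -0.03 in both H2A.Z shRNA groups against control, limma adjusted p = 0.844). H2afv, a second gene for H2A.Z, lay between 13.0 and 16.2 FPKM (log2 fold change -0.01 in the same comparison, limma adjusted p = 0.939). A loss of either mRNA is thus not visible in these values, and groups are named as labelled. All 9 markers of CA1 pyramidal neurons were detected in every library, with Wfs1 between 61.2 and 101.9 FPKM. Markers of neighbouring dentate gyrus granule neurons were also present in every library, with a summed level of 91.3 to 233.4 FPKM over 11 markers. In bulk tissue, fewer cells that express a gene and less RNA of it per cell cannot be told apart.

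Arc was highest in the trained libraries and varied widely among the controls. It stood at 88.4, 32.9 and 36.8 FPKM in scrambled control replicates 1, 2 and 3. In the naive libraries it stood at 46.8, 63.8 and 62.8 FPKM. In the trained libraries it stood at 95.7, 113.2 and 117.8 FPKM. Every trained library lay above every naive and every control library, while the naive values lay between control replicate 1 and the other 2 controls. The group levels were 52.7 ± 31.0, 57.8 ± 9.55 and 108.9 ± 11.7 FPKM (mean ± SD, n = 3 each). The trained mean was 2.07 times the control mean and 1.88 times the naive mean. Naive and control, the lower neighbours in the order of group means, did not differ beyond their spread. As a level per length, Arc ranked between 323 and 463 from the top of all genes tested in the trained libraries. In control replicates 2 and 3 it ranked 1933 and 1713, and in control replicate 1 it ranked 504.

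**Figure D1:**
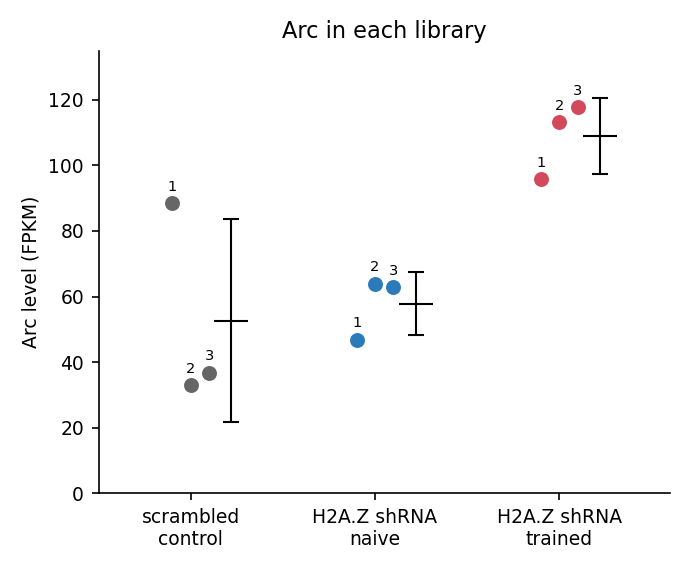
Arc level in FPKM (vertical axis) in each library of the 3 groups, with points numbered by replicate and bars giving the mean ± SD of 3 libraries. The 3 trained libraries, at 95.7 to 117.8 FPKM, sit above all others, and control replicate 1 at 88.4 FPKM sits apart from the other controls.

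The spread among the controls was set by control replicate 1, in which Arc was 2.54 times the mean of the other 2 controls (34.8 FPKM). The standard deviation of log2(FPKM + 1) of Arc was 0.77 among controls, 0.25 among naive and 0.16 among trained libraries. The control value was larger than that of 99.1% of the other genes tested, whose median was 0.10. The difference of control replicate 1 from the mean of the other controls was 1.32 on the log2 scale, and 26 genes had a larger one. Some other activity-regulated transcripts were also high in that library. Npas4, a transcription factor induced by neuronal activity, stood at 2.97, 1.61 and 0.982 FPKM in the controls, 2.29 times the mean of the other 2. Egr2, a zinc finger factor, stood at 2.77, 0.902 and 1.68 FPKM, a ratio of 2.15. Fos, which pairs with Jun proteins to form AP-1, had levels of 6.16, 4.59 and 3.55 FPKM, a ratio of 1.51. Of the 27 immediate early transcription factors and regulators tested, 17 were highest in control replicate 1 among the controls, as were 12 of 26 activity-regulated effectors, against 32.8% of all genes. Pcsk1 and Jund were lower there than in both other controls, with ratios of 0.657 and 0.815. Homer1 lay between the other 2 controls, with a ratio of 0.974.

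Markers of dentate granule neurons, a cell type known to express Arc, were high in the same control library. Their summed level was 184.7, 102.7 and 91.3 FPKM in control replicates 1, 2 and 3, and 11 of 11 markers were highest in replicate 1. Across groups the markers and Arc did not share an order. The naive libraries had summed dentate levels of 178.2 to 233.4 FPKM with Arc at 46.8 to 63.8 FPKM. The trained libraries had 127.9 to 217.2 FPKM with Arc at 95.7 to 117.8 FPKM. The naive library with the most dentate marker RNA, replicate 1, had the least Arc of its group, and the same held for trained replicate 1. With the group means subtracted, Pearson's r of log2(FPKM + 1) with Arc had a median of 0.57 over the 11 markers. The controls, where Arc spread most, weigh most in that value. The summed CA1 markers were lowest among the controls in replicate 1, at 317.3 FPKM against 342.3 and 432.0 FPKM. Interneuron markers stood at 551.5 FPKM there against 705.2 and 785.7 FPKM. The part of these markers in the Arc level of single libraries was not tested. Dentate and CA1 markers were used as covariates in the comparisons of the groups, and interneuron markers were not.

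**Figure D2:**
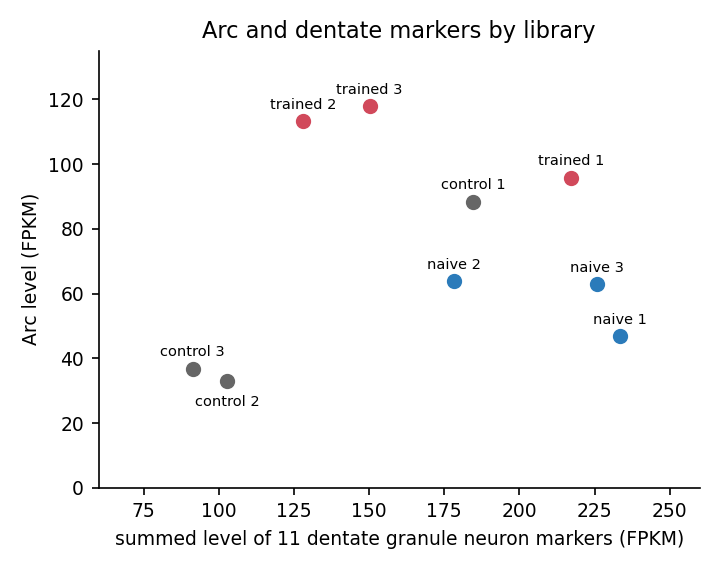
Arc level in FPKM (vertical axis) against the summed level in FPKM of 11 dentate granule neuron markers (horizontal axis), a point per library coloured by group. Among the controls both are highest in replicate 1, while the naive libraries combine high dentate levels of 178.2 to 233.4 FPKM with Arc at 46.8 to 63.8 FPKM.

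Trained against naive libraries compares conditioned with naive mice that carry the same hairpin. Arc had a log2 fold change of 0.91 on the log2(FPKM + 1) scale (SE 0.32, 95% interval 0.18 to 1.64, limma adjusted p = 0.591). The unadjusted limma p was 0.0207, rank 427 of all genes. Arc was higher in 3 of 3 trained libraries than in every naive library, which 5.79% of all genes tested also were, while 9.16% were lower than every naive library. The exact permutation test gave p = 0.1, the smallest value that 3 against 3 libraries allow (two-sided). In this comparison 1 gene passed the adjusted threshold of 0.05 upward and 0 downward, or 0.00811% of genes. That gene was Sgk1, a kinase gene induced by activity and by glucocorticoids, at 13.2, 14.9 and 14.99 FPKM in naive and 26.4, 27.1 and 26.5 FPKM in trained libraries. Its log2 fold change was 0.85 with an SE of 0.07 (adjusted p = 0.00689 by limma). The SE of Arc was 0.32 against 0.07 for Sgk1, and it is pooled over all 3 groups, controls included. Without control replicate 1 the SE of Arc was 0.13 (95% interval 0.61 to 1.21, limma adjusted p = 0.340), and with the naive and trained libraries alone it was 0.14 (interval 0.58 to 1.24, limma adjusted p = 0.470). Without naive replicate 1, trained replicate 2 or trained replicate 3 the interval reached below 0. The Arc estimate kept its direction under all 21 alternatives, between 0.77 and 1.18, and its adjusted p lay between 0.217 and 0.987.

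Trained against control libraries gave a log2 fold change of 1.17 for Arc (SE 0.32, 95% interval 0.44 to 1.91, limma adjusted p = 0.557). All 3 trained libraries were above every control, which held for 6.4% of genes, while 6.08% lay below every control, and the exact permutation p was 0.1, again the smallest possible. The call turned on control replicate 1. Without it the estimate became 1.61, with an SE of 0.15 and an adjusted p of 0.0161 by limma. Naive against control libraries gave 0.26 (SE 0.32, 95% interval -0.47 to 1.00, limma adjusted p = 0.727, exact permutation p = 0.6), and 0 of 3 naive libraries lay above every control. Naive ranges lay above the controls in 11.2% of genes and below them in 8.23%. That estimate was 0.70 without control replicate 1 (limma adjusted p = 0.0863), 0.0039 without control replicate 2 and 0.08 without control replicate 3. As a ratio of FPKM + 1, this interval runs from 0.722 to 1.996 times the control level, and all changes within it are compatible with the spread. Both H2A.Z shRNA groups against control gave 0.72 (SE 0.28, limma adjusted p = 0.383), and 3 of these 6 libraries lay above every control. All 6 did so in 2.94% of genes and all 6 lay below in 2.0%; an unadjusted limma p under 0.05 was seen upward in 7.11% and downward in 5.26%. The exact permutation p was 0.143, where 84 assignments allow 0.0119. Without control replicate 1 this was 1.16 (limma adjusted p = 0.0308).

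With the mean of the dentate markers of each library as a covariate, Arc was 1.18 higher in trained than in naive libraries (SE 0.31, limma adjusted p = 0.225) and 0.90 higher in trained than in control libraries (SE 0.31, limma adjusted p = 0.596). The naive estimate against control changed sign, to -0.29 (SE 0.40, limma adjusted p = 0.813). With CA1 markers as the covariate these 3 estimates were 1.08, 1.07 and -0.0029. Both H2A.Z shRNA groups against control gave 0.30 with the dentate covariate (limma adjusted p = 0.823) and 0.53 with the CA1 covariate (limma adjusted p = 0.723). The comparisons of each H2A.Z shRNA group with control share the control libraries and are not independent of each other.

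**Figure D3:**
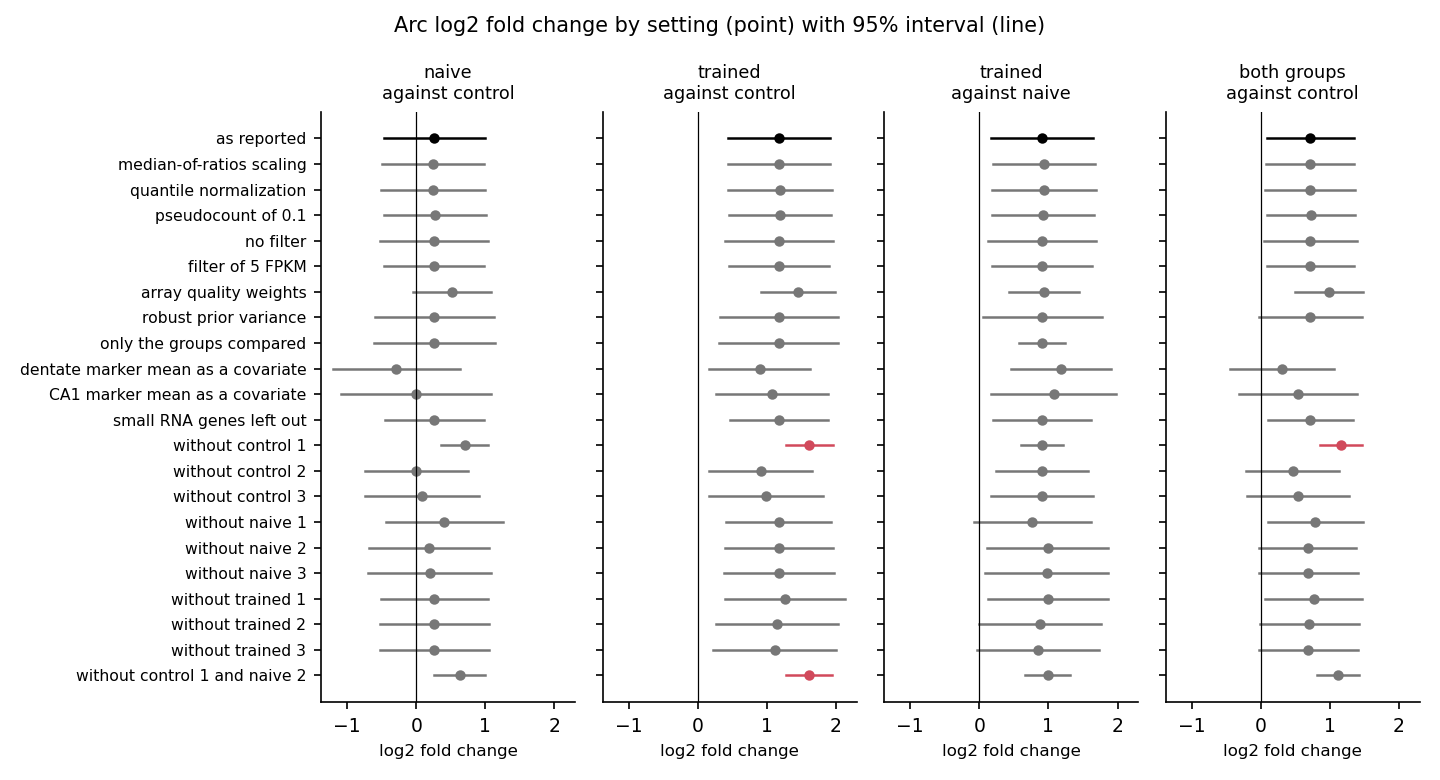
Log2 fold change of Arc on the log2(FPKM + 1) scale (horizontal axis, point) with its 95% interval (line) in 4 comparisons, as reported (top line, black) and under each alternative setting (other lines). Red marks a limma adjusted p under 0.05, reached only in settings that leave out control replicate 1, and the trained against naive estimates all lie between 0.77 and 1.18.

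Likeness to Arc was measured as Pearson's r of log2(FPKM + 1) with Arc over the 9 libraries, for 12326 other genes. The gene nearest to Arc was Errfi1, and 7 of the 47 genes with an r of at least 0.9 were members of the pathway lists described below. Those lists held 27, 26, 11, 16, 4 and 8 of the genes tested. The median r of all genes was -0.08, 44.2% had an r above 0, and the 47 genes were 0.381% of all. No gene passed the exact permutation test after Benjamini-Hochberg adjustment over all 12326 genes (0 for r and 0 for Spearman's rho). An unadjusted exact p under 0.05 was seen for 1284 genes by r and 1046 by rho. The test permuted all 9 libraries without regard to group, so a group difference alone can give a low p. The r values below are therefore a description of how alike the patterns were. The levels of Arc did not fall into separate clusters, the largest gap between neighbouring values being 0.256 of the range on the log2 scale.

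Errfi1, which encodes a feedback inhibitor of the epidermal growth factor receptor, was most like Arc. It stood at 15.1, 11.7 and 12.8 FPKM in control, 12.7, 13.8 and 13.7 FPKM in naive and 15.97, 16.8 and 16.2 FPKM in trained libraries. Its order of libraries was nearly that of Arc, with control replicate 1 just below the trained libraries, but its range was narrower: the highest value was 1.44 times the lowest, against 3.58 times for Arc. Its r was 0.98 and its rho 0.97 (exact permutation p = 2.48e-05 and 0.000165, adjusted p = 0.102 and 0.255). After the group means were subtracted its r was 0.96, and without the 2 libraries farthest from the median of Arc, control replicate 2 and trained replicate 3, it was 0.96. With each library left out in turn it lay between 0.97 and 0.99.

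The next 7 genes had r between 0.94 and 0.96, and rho between 0.87 and 0.95 (unadjusted exact permutation p of r 0.000121 to 0.000405, adjusted p 0.151 to 0.186). In order they were Zbtb21, which encodes a zinc finger protein; Tob2, of a family that slows cell growth and promotes mRNA deadenylation; Trib1, a pseudokinase that regulates MAP kinase signalling; Larp4, a protein that binds poly(A) tails; Zfp281, a zinc finger transcription factor; Kdm6b, a histone demethylase; and Per1, a clock gene that is also induced by cyclic AMP. Tob2 stood at 7.17, 5.24 and 5.18 FPKM in control, 6.32, 6.82 and 6.50 FPKM in naive and 8.08, 8.10 and 7.56 FPKM in trained libraries. Per1 stood at 16.5, 11.7 and 13.4 FPKM in control, 13.8, 13.3 and 14.6 FPKM in naive and 18.7, 19.6 and 19.5 FPKM in trained libraries. As for Arc, no trained value of either gene overlapped the other groups, and control replicate 1 was the highest of its group. Without the 2 libraries farthest from the median, the r of these 7 genes lay between 0.89 and 0.96, and with each library left out in turn between 0.92 and 0.98.

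All 47 genes with r of at least 0.9 were highest in control replicate 1 among the controls, and in 43 every trained library was above every naive one. Both follow from the pattern of Arc by which they were chosen. Their r after subtraction of the group means lay between 0.72 and 0.96, a value that the choice by r over all 9 libraries also shapes. The controls weigh most in such an r, since the SD of Arc was 0.77 among them, against 0.25 and 0.16 in the naive and trained libraries. The median ratio of highest to lowest library was 1.29 among the 47 genes. It was highest for Egr2, at 5.72, followed by Fos at 3.43 and Junb at 2.26. Without control replicate 1, 66 genes had an r of at least 0.9, among them 44 of the 47. After subtraction of the group means 46 did, 9 of them among the 47. By that measure the genes near to Arc included Paqr8, a membrane progestin receptor gene (r = 0.97), Cyld, a deubiquitinase gene (0.96), and Errfi1 (0.96). Paqr8 stood at 47.3, 42.2 and 42.9 FPKM in control but at 37.0 to 39.1 FPKM in the other libraries, so that its r over all libraries was -0.17.

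**Figure D4:**
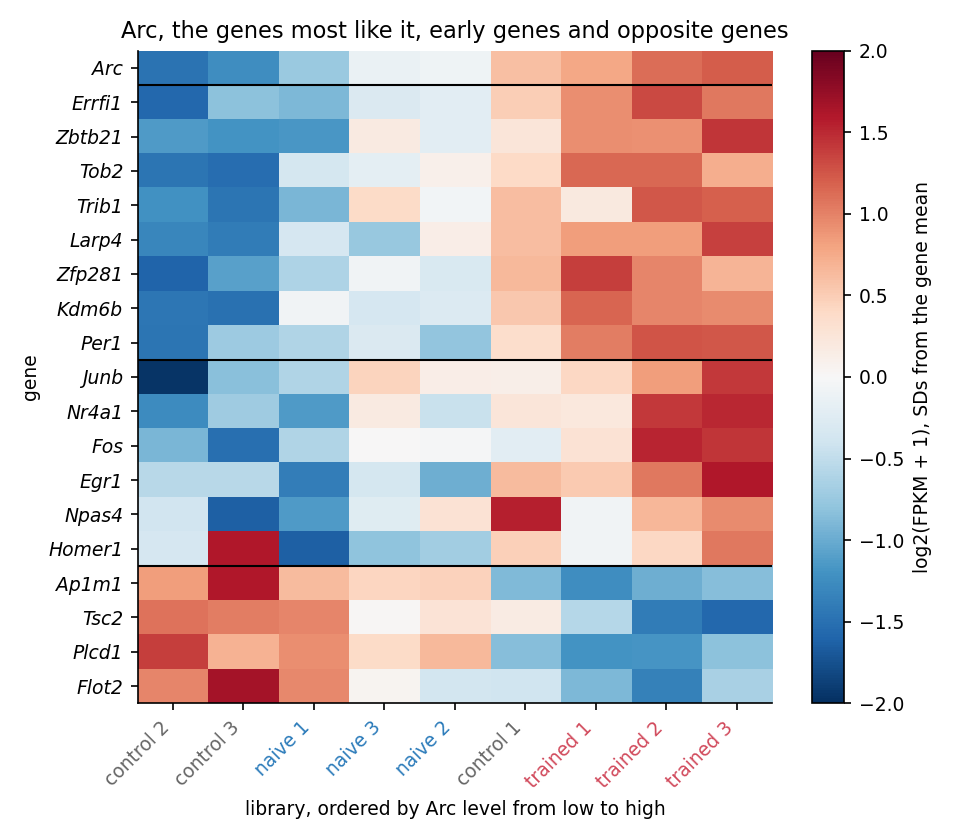
Level of each gene as SDs from its own mean of log2(FPKM + 1) (colour), with libraries ordered by Arc from low to high (horizontal axis, label colour by group). From the top stand Arc, the 8 genes of highest r, 6 early genes fixed by name and the 4 genes of lowest r; control replicate 1 is above the gene mean in all 8 genes of highest r.

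Promoter windows of 250 bases before the annotated start (RefSeq, GRCm38.p6) were matched for 6 of the 8 genes of highest r and for 5 of the 6 early genes fixed by name (Fos, Egr1, Nr4a1, Npas4, Junb and Homer1). They were searched on both strands, with overlapping matches counted each, for the core of the cyclic AMP response element (TGACG), the AP-1 site (TGANTCA) and the CArG box bound by serum response factor. TGACG stood in 4 of the 8 windows of the genes of highest r (Errfi1, Per1 and Zbtb21) and in 5 of the 6 windows of the early genes, against 17.8% of 32851 windows in the table. The AP-1 site and the CArG box were in 0 of these 14 windows, against 6.75% and 1.47% of all. A match is a description of the letters, and no match says only that they are not in this window. The windows shown are from the 3 genes of highest r that hold TGACG, with 1 early gene for comparison. Of the Per1 windows, which both hold it, the one with the match nearer to the start is shown, and capitals mark TGACG or its reverse complement. They are Errfi1 at chr4:150854820-150855069 on the plus strand, Zbtb21 at chr16:97962623-97962872 on the minus strand, Per1 at chr11:69099902-69100151 on the plus strand, and Nr4a1 at chr15:101266596-101266845 on the plus strand. Errfi1 holds an overlapping match on each strand, 51 and 48 bases before the start.
Errfi1: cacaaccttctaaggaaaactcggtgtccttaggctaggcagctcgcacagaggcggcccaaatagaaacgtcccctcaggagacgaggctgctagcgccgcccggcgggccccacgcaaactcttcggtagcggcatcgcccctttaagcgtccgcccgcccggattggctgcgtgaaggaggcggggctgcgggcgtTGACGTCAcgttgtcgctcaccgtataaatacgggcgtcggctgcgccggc
Zbtb21: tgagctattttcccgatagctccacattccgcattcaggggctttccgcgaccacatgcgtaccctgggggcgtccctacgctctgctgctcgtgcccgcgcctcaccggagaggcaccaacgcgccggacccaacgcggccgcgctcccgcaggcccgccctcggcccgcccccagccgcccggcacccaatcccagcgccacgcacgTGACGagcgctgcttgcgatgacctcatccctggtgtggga
Per1: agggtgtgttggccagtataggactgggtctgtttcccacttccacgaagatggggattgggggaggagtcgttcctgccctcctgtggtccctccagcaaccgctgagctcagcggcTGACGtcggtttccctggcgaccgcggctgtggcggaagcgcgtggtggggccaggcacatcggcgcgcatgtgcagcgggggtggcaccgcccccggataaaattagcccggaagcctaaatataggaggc
Nr4a1: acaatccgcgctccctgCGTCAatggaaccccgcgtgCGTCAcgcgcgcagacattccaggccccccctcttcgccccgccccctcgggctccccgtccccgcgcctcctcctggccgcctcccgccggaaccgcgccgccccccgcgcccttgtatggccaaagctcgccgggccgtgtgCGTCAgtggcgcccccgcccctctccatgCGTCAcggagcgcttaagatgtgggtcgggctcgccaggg

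Among immediate early transcription factors and regulators, 25 of the 27 genes tested had an r above 0 with Arc, beside 44.2% of all genes, with a median of 0.64, beside -0.08 over all genes. Of the 27, 6 had an r of at least 0.9, beside 0.381% of all genes. They were Per1, Egr2, Junb, Nr4a1, Klf2 and Fos, of which Klf2 is named here after its value was seen. Junb, a subunit of AP-1, stood at 31.2, 18.9 and 24.8 FPKM in control, 26.3, 31.4 and 33.7 FPKM in naive and 33.6, 37.2 and 42.7 FPKM in trained libraries (r = 0.92, rho = 0.88). Nr4a1, an orphan nuclear receptor gene, stood at 41.7, 29.0 and 33.1 FPKM, at 29.9, 35.3 and 41.2 FPKM and at 41.5, 55.3 and 56.8 FPKM (r = 0.92, rho = 0.95). The trained and naive ranges overlapped for Junb, and for Nr4a1 the lowest trained value was just above the highest naive one. Fos had an r of 0.91 and a rho of 0.90. It stood at 5.24, 6.67 and 6.72 FPKM in naive and 7.55, 12.2 and 11.7 FPKM in trained libraries. Over these 3 genes the unadjusted exact permutation p of r lay between 9.37e-05 and 0.000931, and the adjusted p between 0.151 and 0.200.

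Egr1, a zinc finger factor that binds many neuronal promoters, followed Arc less closely. It stood at 98.5, 72.7 and 72.6 FPKM in control, 58.7, 65.1 and 76.6 FPKM in naive and 95.9, 109.4 and 126.1 FPKM in trained libraries (r = 0.82, rho = 0.78, exact permutation p = 0.00919 and 0.0172, adjusted p = 0.338 and 0.431). Unlike Arc, it was lower on average in naive than in control libraries (log2 fold change -0.27, limma adjusted p = 0.412). Npas4 had an r of 0.78 and stood at 1.79, 2.28 and 2.48 FPKM in trained libraries, below its 2.97 FPKM in control replicate 1. Jund, an AP-1 subunit gene, had the lowest r of the list, -0.70. Homer1, a postsynaptic scaffold gene whose short form is induced by activity, had an r of 0.23. It stood at 52.5, 47.3 and 60.5 FPKM in control, 40.04, 45.1 and 44.5 FPKM in naive and 48.9, 52.0 and 56.4 FPKM in trained libraries. The table gives a value per gene and does not separate the short form.

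Activity-regulated effector genes, the downstream group to which Arc itself belongs, had a median r of 0.58. Of the 26 tested, 23 had an r above 0, beside 44.2% of all genes. An r of at least 0.9 was seen for 1, Trib1, beside 0.381% of all genes. Dusp1, a phosphatase of MAP kinases, had an r of 0.87, Sik1, a salt-inducible kinase gene, 0.86 and Sgk1 0.82. Pcsk1, a prohormone convertase gene, had the lowest, -0.47. Bdnf, a neurotrophin gene named here after its value was seen, had an r of 0.73, or 0.29 after subtraction of the group means. In trained against naive libraries, 10 of the 27 transcription factors and regulators and 10 of the 26 effectors had an unadjusted limma p under 0.05 upward, and 0 in either list downward. Over all genes these shares were 2.74% upward and 5.53% downward. The median log2 fold changes of the lists were 0.19 and 0.22, beside -0.02 over all genes. In trained against control libraries the counts upward were 14 and 10, where 3.92% of all genes were, and 0 and 0 downward, where 3.8% were, with medians of 0.37 and 0.18. After adjustment over all genes, Sgk1 alone of the lists passed in either comparison. In naive against control libraries, 3 of each list had an unadjusted limma p under 0.05 upward, against 9.81% of all genes, and 1 and 2 downward, against 5.69%. Both lists were chosen with earlier results of these data known, so these counts describe the lists and do not test them.

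**Figure D5:**
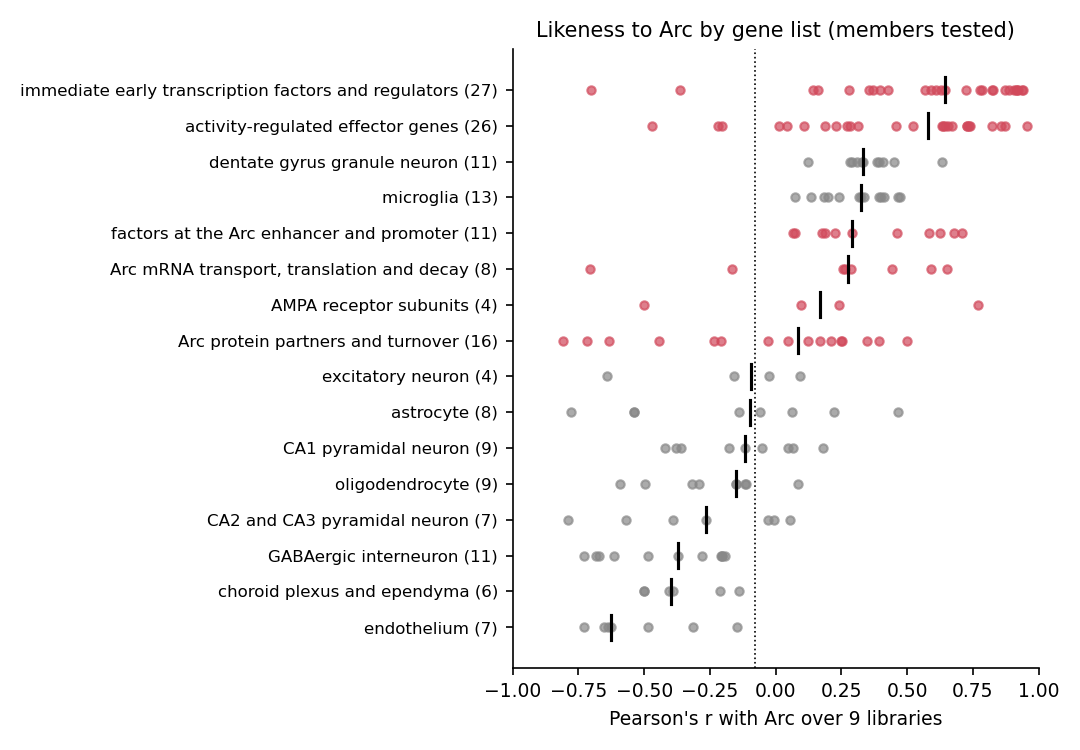
Pearson's r with Arc over 9 libraries (horizontal axis) of every tested member of each gene list (vertical axis, number of members in brackets), with a black bar at the list median and a dotted line at the median of all genes, -0.08. Pathway lists are red and cell type markers grey; both lists of activity-regulated genes have the highest medians, 0.64 and 0.58.

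Lists of genes that control Arc or act with its protein or mRNA had medians of r between 0.09 and 0.29, and the differences from other lists were not tested. Of 11 factors and cofactors that act at the Arc enhancer and promoter, 11 had an r above 0, where 44.2% of all genes did, with a median of 0.29 and none of at least 0.9. Mkl1, a cofactor of serum response factor, had 0.71, the histone acetyltransferase gene Ep300 0.68, Srf itself 0.63 and Creb1, which binds the cyclic AMP response element, 0.58. Mef2a had 0.07. Srf stood at 16.6, 12.6 and 16.5 FPKM in control, 15.4, 16.3 and 16.8 FPKM in naive and 18.0, 15.7 and 17.1 FPKM in trained libraries, and its r was 0.24 without the 2 libraries farthest from the median of Arc. In trained against naive libraries 0 of these 11 genes had an unadjusted limma p under 0.05, where 2.74% of all genes did upward and 5.53% downward. In naive against control libraries 2 of 11 did, both upward, where 9.81% of all genes did: Mef2c (log2 fold change 0.42) and Elk1 (0.34), named here after their values were seen.

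Of 16 partners of the Arc protein and genes of its turnover, 9 had an r above 0, a share near the 44.2% of all genes, with a median of 0.09. Camk2b, a kinase subunit that holds Arc at inactive synapses, had 0.50, the endophilin gene Sh3gl1 0.39, the dynamin gene Dnm2 0.35 and the ubiquitin ligase gene Ube3a 0.25. Kat5, an acetyltransferase gene, had -0.81, with 16.1, 19.1 and 19.3 FPKM in control and 16.2 to 17.5 FPKM in all naive and trained libraries. Of 4 AMPA receptor subunit genes, Gria2 had an r of 0.77, Gria1 0.24, Gria3 0.10 and Gria4 -0.50. Gria2 stood at 202.3, 169.8 and 168.1 FPKM in control, 194.7, 191.2 and 170.5 FPKM in naive and 207.8, 192.4 and 202.5 FPKM in trained libraries. Of 8 genes for transport, translation and decay of Arc mRNA, 6 had an r above 0, beside 44.2% of all genes. Their median r was 0.27. Hnrnpa2b1 had 0.65, Fmr1, whose product represses translation in dendrites, 0.59, Smg1, a kinase of nonsense-mediated decay, 0.44, Cyfip1 0.28 and Pura, which binds RNA in dendrites, -0.71. Of the 28 genes of these last 3 lists, 1 had an unadjusted limma p under 0.05 in trained against naive libraries, Stub1, a ubiquitin ligase gene (log2 fold change -0.13), a share near the background given above. In naive against control libraries Cyfip1 (0.19) and Upf1 (0.23) did so upward and Gria4 (-0.24) downward. Of all genes, 9.81% did so upward and 5.69% downward in that comparison. In trained against control libraries Cyfip1 (0.13) did so upward, as did 3.92% of all genes. None of the 28 genes passed after adjustment, and Stub1 and Upf1 are named here after their values were seen.

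At the other end, 17 genes, or 0.138%, had an r of at most -0.9. The lowest were Flot2, a membrane scaffold gene, Plcd1, a phospholipase C gene, Tsc2, whose product restrains the mTOR kinase, and Ap1m1, a clathrin adaptor subunit gene, each with an r between -0.93 and -0.92 (unadjusted exact permutation p 0.000416 to 0.000716, adjusted p 0.186 to 0.197). Tsc2 stood at 15.02, 16.4 and 16.4 FPKM in control, 16.3, 15.2 and 14.8 FPKM in naive and 14.0, 12.9 and 12.7 FPKM in trained libraries. Every trained value was below every other library, and control replicate 1 was the lowest control. Both traits of Tsc2 mirror the pattern of Arc, by which the gene was chosen. Of all genes, 9.16% had every trained library below every naive one, and 6.08% had every trained library below every control.

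The genes beside Arc on chromosome 15 had r below or near 0. Jrk, 29731 bases away, stood at 1.15, 1.28 and 1.49 FPKM in control, 1.23, 1.23 and 1.201 FPKM in naive and 1.13, 0.990 and 1.14 FPKM in trained libraries, with an r of -0.84. Adgrb1, an adhesion receptor gene listed under its older symbol Bai1 and 79618 bases away, stood between 43.3 and 50.1 FPKM with an r of 0.03. Mroh4 and Psca, the other nearest protein-coding genes, were listed at 0 in most libraries and were not tested.

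Of the cell type lists, dentate granule neuron and microglial markers lay on the side of Arc, with 11 of 11 and 13 of 13 members above 0, beside 44.2% of all genes, and median r of 0.33 each. Interneuron, endothelial and choroid plexus markers lay on the other side, with 0 of 11, 0 of 7 and 0 of 6 above 0 and medians of -0.37, -0.63 and -0.40. The summed interneuron level was 551.5 to 785.7 FPKM in control, 551.9 to 583.5 FPKM in naive and 581.7 to 693.5 FPKM in trained libraries. The summed microglial level was 239.7 to 292.9, 302.7 to 575.7 and 296.8 to 442.4 FPKM in the same order. CA1 markers had a median r of -0.12, with 3 of 9 above 0. Their summed level was 317.3 to 432.0 FPKM in control, 279.3 to 318.1 FPKM in naive and 294.8 to 364.2 FPKM in trained libraries. Their log2 fold change was above 0 for 0 of 9 in naive against control, beside 55.1% of all genes. In trained against naive it was above 0 for 8 of 9, beside 41.3%. The part of these cell types in the likeness was not tested.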

How the data were processed

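RNA-seq of 9 libraries was analysed. Per the labels' protocols, directional polyadenylated RNA libraries were made from 1 µg of RNA and read from both ends, 50 bp each. FastQC, TopHat 1.4.0, Cufflinks, Cuffdiff and the build mm10 were used per the submitters' processing notes. The authors deposited FPKM values per gene and library, and no counts were used here. The sources used here do not name the gene annotation.

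Of 24489 rows, 27 had names that were numbers or dates and 5649 were 0 in every library. The 12327 rows with a mean of at least 1 FPKM were transformed to log2(FPKM + 1) and fitted with limma 3.58.1 (R 4.3.3, 3 groups, trend in the prior variance, Benjamini-Hochberg over all genes, threshold 0.05). Each pair of groups was compared, and naive and trained libraries together were set against the controls. The added 1 understates changes of low genes. Likeness to Arc was computed with Python 3.11.15, with exact permutation of the libraries (362880 orders). Both methods were tested on simulated data. Fragments behind Arc were estimated from genes with 1 transcript, in which 1 FPKM corresponded to about 18.6 to 26.9 fragments per kilobase.

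Coordinates come from GENCODE M21 (GRCm38, the assembly of mm10), and 95.4% of tested symbols matched. Arc and all gene lists were chosen with earlier results of these data known. Named genes are the 8 of highest and 4 of lowest r, the 4 of highest r after subtraction of group means, 6 early genes, up to 4 of highest and 1 of lowest r per list, and the nearest genes on each side of Arc. Predicted, small RNA and duplicated names are left out. One gene that this rule names is not reported here.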

Additional observations from a re-analysis of the deposited data

How the results depend on the processing

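Results were computed again with other scalings, pseudocounts, filters, weights and marker covariates and without single libraries. Arc in trained against naive libraries kept its direction and side of the threshold under 21 of 21 alternatives. Against control, the naive estimate changed sign with a covariate, to -0.29 with dentate markers and -0.0029 with CA1 markers (limma adjusted p over its alternatives 0.0863 to 0.999). The trained estimate passed the threshold without control replicate 1 and without that library and naive replicate 2, at 1.61 in both. Without single libraries the estimates ran from 0.0039 to 0.70 for naive, 0.91 to 1.61 for trained and 0.46 to 1.16 for both groups against control, and both groups passed only without control replicate 1. The cause was not tested.

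Few genes passed the threshold in any comparison, and these counts moved. Naive against control gave 0 genes, but 2 with a filter of 5 FPKM, 3 with array weights, 4 without control replicate 1 and naive replicate 2, and 0 to 15 without single libraries. Trained against control gave 1 gene, but 0 with no filter or either covariate, 3 with only the groups compared, 6 without those 2 libraries, and 0 to 25 without single libraries. Trained against naive gave 1 gene, but 2 with only the groups compared or the dentate covariate, 0 with the CA1 covariate, and 0 to 25 without single libraries. Both groups against control gave 0 genes, but 3 with array weights, 5 without those 2 libraries, and 0 to 37 without single libraries. An r of at least 0.9 with Arc was seen for 47 genes, for 39 to 94 without single libraries (94 without naive replicate 1, 81 without trained replicate 2) and for 110 without those 2 libraries.

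The list counts in trained against control libraries, 14 and 10 upward, were 17 and 10 without control replicate 1 and 12 and 9 with the dentate covariate. In trained against naive libraries, 10 and 10 became 11 and 12, and 10 and 7. These list alternatives were chosen after seeing the data. No paired analysis was possible because the labels give no replicate numbers, and the numbers used here only name libraries. With 3 libraries a group and no counts, no counting interval was computed.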
